A study of Arabidopsis thaliana with 6 samples.

Results

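The genes examined here encode the core machinery that makes and uses microRNAs (miRNAs) in *Arabidopsis thaliana*. They are *DCL1*, *HYL1*, *SE*, *TGH*, *DDL*, *CPL1*, *HEN1*, *HST* and *AGO1*, which were chosen by name for their known roles and found by locus identifier, 9 of the 32998 genes in the deposited gene table. Transcript levels were measured by RNA-seq in complete seedlings of WT, which is the accession Columbia (Col-0), and of *mdf-1*, a T-DNA insertion line of *MDF* in the Col-0 background. *MDF* encodes a splicing factor that is the plant homolog of human SART1. The seedlings were 12 days old, had grown untreated on MS plates with sucrose in long days, and gave 3 libraries per genotype, each from a separate biological replicate. A single mutant line was sequenced, so its values come from 1 insertion allele.

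In plants, a miRNA is cut out of a folded primary transcript in the nucleus. The RNase III enzyme DCL1 makes both cuts, with the double-stranded RNA-binding protein HYL1 and the zinc finger protein SE as partners that place them accurately. TGH, DDL and CPL1 act with this complex, HEN1 methylates the ends of the small RNA duplex, HST is the plant counterpart of exportin 5, and AGO1 carries the finished miRNA and cuts or represses the target mRNA. The pathway is known to act on its own genes: *DCL1* mRNA is a target of miR162, *AGO1* mRNA is a target of miR168, and an intron of *DCL1* holds the miRNA gene *MIR838A*.

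The sequences of these loops are shown because the largest decreases among the 9 genes were those of *DCL1* and *AGO1*, and because the splicing event listed for *DCL1* lies within one of the sites. All were read from RefSeq TAIR10.1, 5′ to 3′ and as DNA letters. In the 3 mature miRNAs the capitals mark bases 2 to 8, the seed. In the target sites the capitals mark bases that form a Watson-Crick pair with the miRNA.
miR162a-3p: tCGATAAAcctctgcatccag
DCL1 site, shorter form: CTGGATGCAGAGGTaTTATCGA
DCL1 site, longer form: CTGGATGCAGAGGTtgtaTTATCGA
miR168a-5p: tCGCTTGGtgcaggtcgggaa
AGO1 site: TTCCCGAgCTGCAtCAAGCtA
miR838: tTTTCTTCtacttcttgcaca

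The miR162 sequence is the same in the products of *MIR162A* and *MIR162B*, and the miR168 sequence is the same in those of *MIR168A* and *MIR168B*. The *AGO1* site lies in coding sequence of exon 2 (chr1:17891529-17891549, minus strand), with 18 Watson-Crick pairs, 1 G-U pair and 2 mismatches to miR168. The miR838 sequence was read from chr1:28635-28655 on the plus strand.

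Counted reads per library ran from 44738352 to 45418026 for *mdf-1* and from 47175914 to 50088386 for WT. Of 22397 genes with enough counts for the test, 7504 (33.5%) were up-regulated and 7585 (33.9%) were down-regulated in *mdf-1* compared with WT, together 67.4%, at an adjusted p below 0.05 from edgeR's quasi-likelihood test with Benjamini-Hochberg adjustment. When libraries were scaled to their total counts in place of TMM, the median of all genes moved to -0.14 on the log2 scale and the split became 5561 up and 9339 down. *MDF* itself had between 78.6 and 82.9 CPM (counts per 1000000 counted reads after TMM scaling) in the libraries labelled *mdf-1* and between 63.2 and 66.5 in WT, an up-regulation of 0.32 on the log2 scale. The gene-level count does not separate transcripts that cross the insertion from others, so this is no check of the genotype, and every direction below rests on the labels. Summed root markers (*PIN2*, *EXPA7*, *COBL9*, *SCR*, *SHR*, *CASP1*) were between 66.5 and 74.5 CPM in *mdf-1* against 150 to 157 in WT, and 6 of 6 were down. Dividing cell markers summed to between 85.1 and 103 CPM against 117 to 131, with 5 of 6 down. Leaf photosynthesis markers summed to between 35646 and 46575 CPM against 34497 to 38852, with 2 of 6 up and none down. Of 5 meristem markers, 3 were tested (*STM* up, *PLT1* and *PLT2* down), while *WUS* and *CLV3* had at most 6 counts in any library. In whole seedlings, fewer cells of a type and less RNA per cell cannot be told apart, and the part that these shifts in tissue markers have in the changes below was not tested.

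The machinery genes moved unequally. *AGO1*, *DCL1*, *CPL1*, *HEN1* and *HST* were down-regulated in *mdf-1*, to between 51.3% and 69.1% of the WT level, while *SE* and *TGH* differed by less than the spread between libraries and *HYL1* did not pass the test. *DDL* passed it with a small increase. Thus 5 of the 9 genes were down and 1 was up, where 33.9% of all tested genes were down and 33.5% up. The 9 genes were all tested, their median log2 fold change was -0.53 with a range from -0.96 to 0.18, and the median of all tested genes was 0.01. The libraries of the 2 genotypes did not overlap for 7 of the 9 genes, against 73.2% of all tested genes. The count of 5 down was the same with each library left out in turn, replicate 3 of *mdf-1*, which stood apart for *HEN1*, among them. The single gene up, *DDL*, kept its call only without that replicate and was lost when any of the other 5 libraries was left out.

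**Figure D1:**
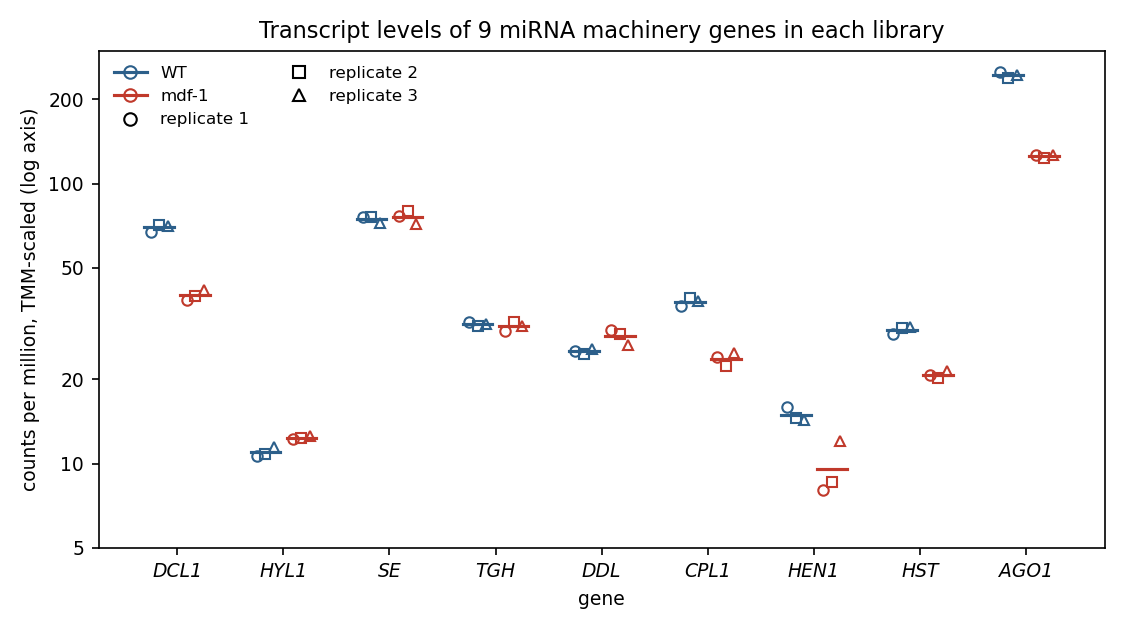
Transcript level of each of the 9 genes (TMM-scaled CPM, log axis) in the 3 WT and 3 *mdf-1* libraries, with 1 symbol per library and a bar at each group's mean. The *mdf-1* libraries lie below all WT libraries for *DCL1*, *CPL1*, *HEN1*, *HST* and *AGO1*, and they overlap with WT for *SE* and *TGH*.

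*DCL1* (AT1G01040, chromosome 1 from 23121 to 31227) encodes the enzyme that cuts miRNA precursors. Its transcript level was 38.5, 39.8 and 41.7 CPM in the *mdf-1* libraries and 67.4, 71.2 and 70.7 CPM in the WT libraries. All *mdf-1* values lay below all WT values, and the gap between the groups was wider than the range within either. The log2 fold change was -0.80 (95% interval -0.92 to -0.68, standard error 0.053, edgeR adjusted p = 9.27e-06, Benjamini-Hochberg), and *DCL1* transcripts were at 57.3% of the WT level. Of all tested genes, 17.4% had a lower log2 fold change.

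*HYL1* (AT1G09700, chromosome 1 from 3137649 to 3140353, named DRB1 in the deposited table) encodes the double-stranded RNA-binding partner of DCL1. It had 12.2, 12.4 and 12.5 CPM in *mdf-1* and 10.7, 10.8 and 11.4 CPM in WT. The *mdf-1* libraries were all above the WT libraries, but by little. The log2 fold change of 0.17 (standard error 0.071) did not pass the test (edgeR adjusted p = 0.0567, Benjamini-Hochberg), although its unadjusted 95% interval ran from 0.01 to 0.34. The 3′ end of the *HYL1* gene shares 36 bases with the gene *RPL21A* on the same strand, whose counts (16820 to 18799 per library) were far higher than those of *HYL1* (517 to 606), and how reads in the shared bases were assigned is not given in the sources used here.

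*SE* (AT2G27100, chromosome 2 from 11572397 to 11576658) encodes a zinc finger protein that acts in miRNA processing and in splicing. Its transcript level was 76.8, 79.8 and 71.7 CPM in *mdf-1* and 75.9, 76.0 and 72.4 CPM in WT. The groups overlapped, with the lowest and the highest value both in *mdf-1*. The difference of 0.02 on the log2 scale (95% interval -0.11 to 0.15) was within the spread between libraries.

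The balance among the genes of the core complex differed between the genotypes. The ratio of *DCL1* to *SE* (both in CPM) was 0.53 ± 0.047 in *mdf-1* against 0.93 ± 0.044 in WT (mean ± SD of 3 libraries). The ratio of *DCL1* to *HYL1* was 3.23 ± 0.080 in *mdf-1* and 6.37 ± 0.21 in WT. These ratios describe unequal change of the transcripts and say nothing of the protein levels, which were not measured in these libraries.

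Of the genes that assist the core complex, *TGH* (AT5G23080, chromosome 5 from 7742940 to 7749020), which encodes a G-patch RNA-binding protein, had 29.8, 32.0 and 31.1 CPM in *mdf-1* and 32.0, 31.1 and 31.4 CPM in WT. The values of the genotypes were interleaved, and the log2 difference was -0.02 (95% interval -0.15 to 0.10). *DDL* (AT3G20550, chromosome 3 from 7174436 to 7178020) encodes a protein with a phosphothreonine-binding FHA domain that interacts with DCL1. It had 29.9, 28.9 and 26.5 CPM in *mdf-1* and 25.3, 24.6 and 25.6 CPM in WT. The *mdf-1* libraries were above the WT libraries, the closest by less than 1 CPM. The log2 fold change of 0.18 (standard error 0.062) passed the test narrowly (edgeR adjusted p = 0.0328, Benjamini-Hochberg), and it was lost with DESeq2, with upper-quartile or total-count scaling, with the stricter filter of 10 counts per library, with a replicate term and when any library except replicate 3 of *mdf-1* was left out (adjusted p between 0.0089 and 0.0982 over the libraries left out).

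*CPL1* (AT4G21670, chromosome 4 from 11510989 to 11517396) encodes the phosphatase that removes phosphate groups from HYL1. It had 24.0, 22.4 and 24.8 CPM in *mdf-1* and 36.4, 39.0 and 38.2 CPM in WT. Every *mdf-1* library was below every WT library, with a log2 fold change of -0.68 (standard error 0.060, edgeR adjusted p = 3.27e-05, Benjamini-Hochberg), which is 62.6% of the WT level. The gene shares 44 bases at its 3′ end with *NPF7.2* on the opposite strand, which had 5240, 4581 and 1156 counts in *mdf-1* and 236, 267 and 286 in WT. *NPF7.2* was thus higher in *mdf-1* where *CPL1* was lower. *DCL1* and *TGH* share 58 and 39 bases with antisense neighbours.

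*HEN1* (AT4G20910, chromosome 4 from 11185936 to 11191123) encodes the methyltransferase that protects the 3′ ends of small RNAs from tailing and decay. It had the lowest level per length of the 9 genes in both genotypes and the widest spread between *mdf-1* libraries relative to its mean. Its transcript level was 8.06, 8.61 and 12.1 CPM in *mdf-1* and 15.9, 14.5 and 14.4 CPM in WT. Replicate 3 of *mdf-1* lay between the other *mdf-1* libraries and WT, still below all WT libraries. The log2 fold change was -0.64 (95% interval -0.98 to -0.29, standard error 0.149, edgeR adjusted p = 0.00568, Benjamini-Hochberg). Without replicate 3 of *mdf-1* it was -0.85, and without replicate 1 it was -0.52, both past the threshold.

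*HST* (AT3G05040, chromosome 3 from 1401171 to 1408302), the exportin 5 counterpart, had 20.6, 20.3 and 21.4 CPM in *mdf-1* and 28.9, 30.6 and 30.6 CPM in WT. The groups were well separated, and the log2 fold change was -0.53 (standard error 0.056, edgeR adjusted p = 7.52e-05, Benjamini-Hochberg), or 69.1% of the WT level. This was the smallest of the 5 decreases.

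*AGO1* (AT1G48410, chromosome 1 from 17885633 to 17892632), whose protein carries most miRNAs to their targets, showed the largest decrease of the 9 genes. Its transcript level was 127, 124 and 126 CPM in *mdf-1* and 251, 239 and 244 CPM in WT. Both groups were tight and far apart. The log2 fold change was -0.96 (95% interval -1.08 to -0.85, standard error 0.051, edgeR adjusted p = 3.85e-06, Benjamini-Hochberg), and WT had 1.95 times the *mdf-1* level. Of all tested genes, 14.6% had a lower log2 fold change.

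**Figure D2:**
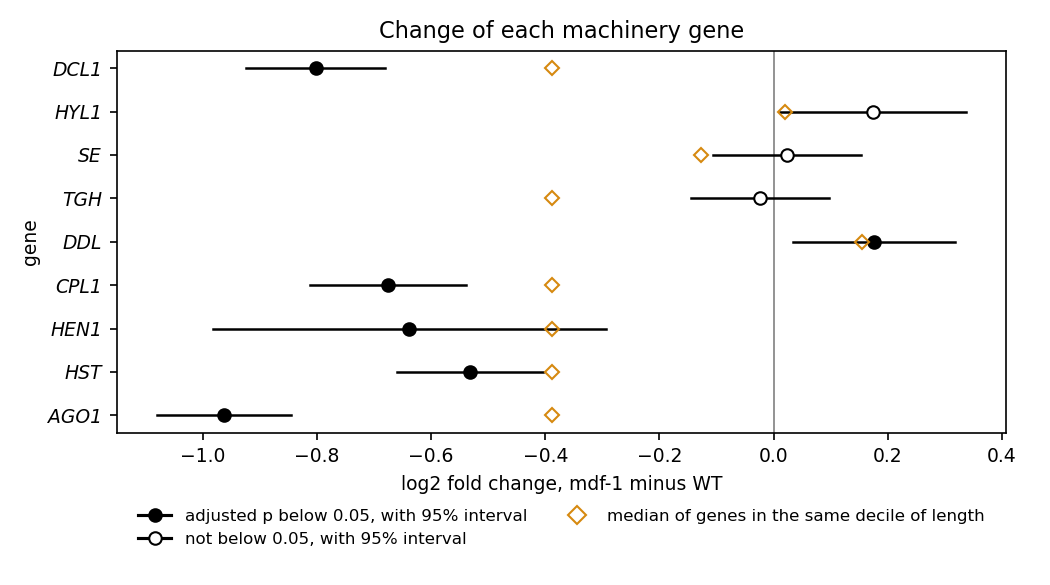
Log2 fold change (*mdf-1* minus WT) of each of the 9 genes with its unadjusted 95% interval from edgeR. Filled circles passed an adjusted p of 0.05, open circles did not, and diamonds give the median of tested protein-coding genes in the same decile of exonic length. The intervals of *AGO1*, *DCL1* and *CPL1*, and narrowly that of *HST*, end below the diamond of their decile, those of *TGH* and *SE* lie above it, and those of *HYL1*, *DDL* and *HEN1* include it.

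Together the 9 genes had 367 ± 0.82 CPM in *mdf-1* against 540 ± 3.6 CPM in WT (mean ± SD of 3 libraries), so their sum in *mdf-1* was 68.1% of that in WT. *AGO1* made up 34.2% ± 0.50 of this sum in *mdf-1* and 45.3% ± 0.84 in WT. Without *AGO1*, the sum of the other 8 genes was 242 ± 2.2 CPM in *mdf-1* and 295 ± 2.6 CPM in WT, or 82.0% of WT.

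Expressed per kilobase of exonic length (RPKM, the CPM divided by length), *AGO1* stood first in WT with 67.2 ± 1.7, followed by *SE* with 28.2 ± 0.77, *DDL* with 18.1 ± 0.36 and *DCL1* with 11.1 ± 0.33 (SD, n = 3 libraries). *TGH* (9.82 ± 0.14) and *CPL1* (9.71 ± 0.33) overlapped in WT and have no order, and *HST*, *HYL1* and *HEN1* followed with 7.28 ± 0.24, 6.07 ± 0.22 and 4.30 ± 0.25. In *mdf-1*, *AGO1* was still first with 34.5 ± 0.47, but *SE* with 28.7 ± 1.5 was now close behind it. *DCL1* dropped from rank 4 in WT to rank 6 in *mdf-1*, at 6.37 ± 0.25, where it overlapped with *CPL1* (6.08 ± 0.31) and lay below *TGH* (9.65 ± 0.35) and *HYL1* (6.85 ± 0.10).

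The genes that were down are also long, and long genes were down more often in these libraries. Among 21223 tested protein-coding genes split into deciles of exonic length, 67.4% of the 2121 longest genes (3171 bases or more) were down and 11.3% were up, with a median log2 fold change of -0.39. That decile held *DCL1* (6279 bases), *HST* (4127), *CPL1* (3900), *AGO1* (3640), *HEN1* (3471) and *TGH* (3210), of which 5 of 6 were down. *AGO1* was 0.57 and *DCL1* 0.41 below the median of that decile. *CPL1* was 0.29, *HEN1* 0.25 and *HST* only 0.14 below it, whereas *TGH* was 0.36 above it. Within the decile, 15.4% of genes had a lower log2 fold change than *AGO1* and 20.9% a lower one than *DCL1*. The shares for *CPL1*, *HEN1* and *HST* were 27.8%, 30.5% and 37.8%. *SE* (2654 bases) and *HYL1* (1806 bases), which lie in shorter deciles, were both 0.15 above the median of their own decile. The shorter *DDL* (1387 bases) was 0.02 above the median of its own decile, in which 43.0% of genes were up. The part of length in the changes of the 9 genes was not tested.

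**Figure D3:**
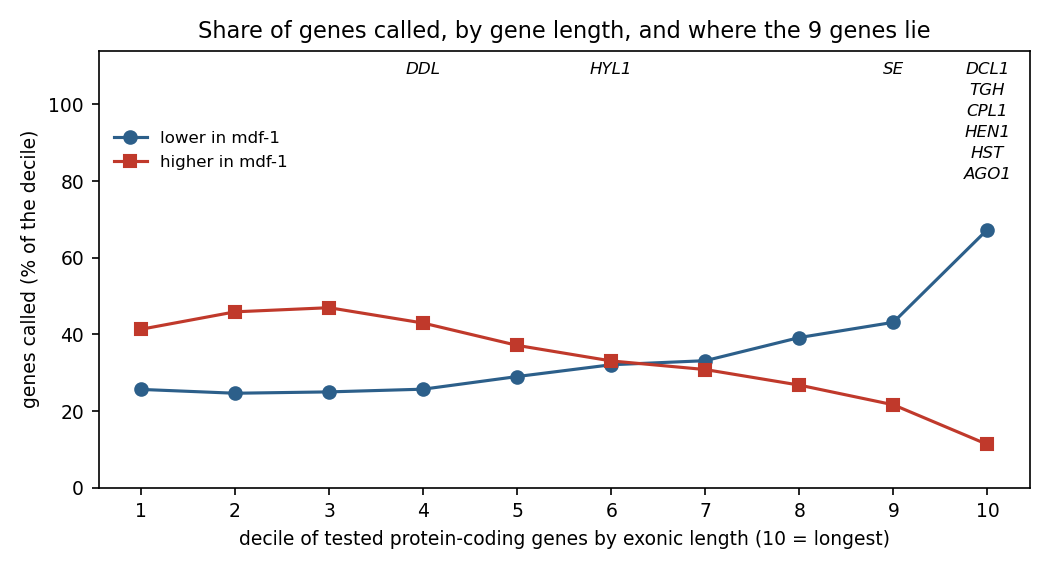
Percent of tested protein-coding genes called lower (circles) or higher (squares) in *mdf-1* in each decile of exonic length, from the shortest (1) to the longest (10), with the names of the 9 genes above the decile in which they fall. The share called lower reaches 67.4% in the longest decile, which holds 6 of the 9 genes.

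The study's lists of splicing differences between *mdf-1* and WT were searched for the 9 genes over 5 types of event. *DCL1* was the only gene found, with 1 event, the use of alternative 5′ splice sites at the end of exon 12. The share of all genes with a listed event was not worked out here. A find in 1 of 9 genes is therefore not read as a trait of the machinery. The counts used here are per gene and do not measure this event, so neither its size nor its direction is given. RefSeq annotates both forms: in the shorter one exon 12 runs from 27372 to 27533 on chromosome 1, in the longer one it ends at 27536, and both join to exon 13, from 27618 to 27713, of 20 exons. The genomic sequence across both sites is shown with the bases between them in capitals, which are exon in the longer form and intron in the shorter.
DCL1 exon 12 end, chr1:27509-27548, plus strand: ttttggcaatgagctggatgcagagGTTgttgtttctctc

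The reading frame is kept, with 1909 residues in the shorter form and 1910 in the longer. The miR162 site spans this junction. In the shorter form it takes 12 bases from exon 12 and 10 from exon 13, and all 21 bases of miR162 find a Watson-Crick partner around 1 unpaired target base. In the longer form the site takes 15 bases from exon 12, and the same 21 pairs are interrupted by 4 unpaired target bases in place of 1, as shown in the site sequences above in lower case. This is a description of the annotated sequences, and the use of either form as a target was not measured.

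**Figure D4:**
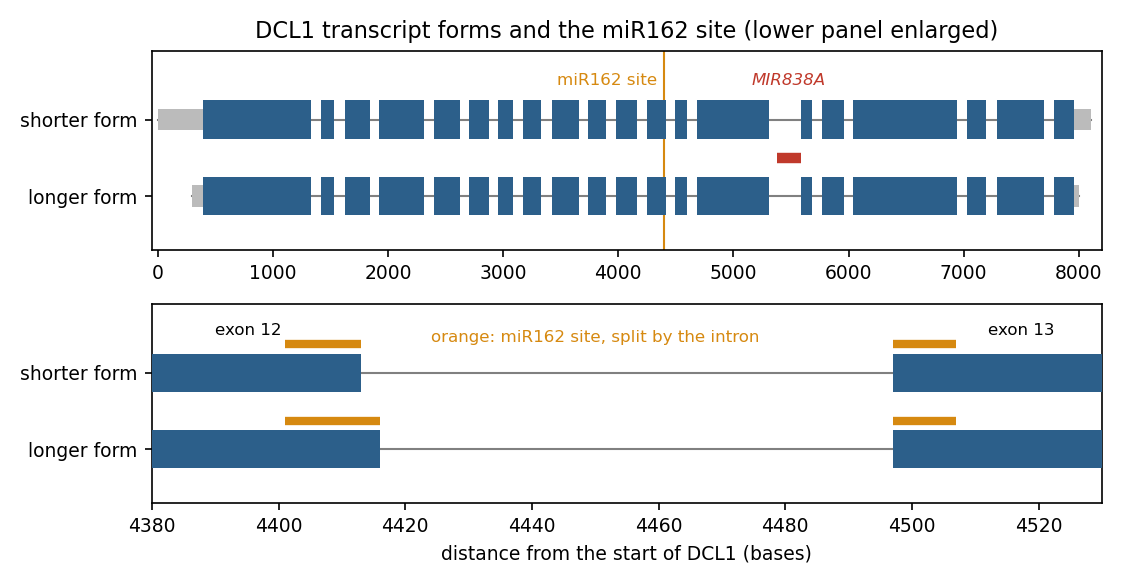
Exons (boxes, coding parts tall and blue) and introns (lines) of the shorter and longer *DCL1* forms by distance in bases from the start of the gene, with *MIR838A* inside intron 14. The enlarged lower panel shows that the miR162 site (orange) is split by the intron after exon 12, whose end differs by 3 bases between the forms.

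The primary transcripts of the miRNA genes in these loops were sparse, as counts on a miRNA gene come from its precursor RNA and not from the mature miRNA. *MIR162A* had 54, 40 and 60 counts in *mdf-1* and 154, 185 and 146 in WT, and *MIR168A* had 9, 10 and 12 counts in *mdf-1* and 36, 37 and 27 in WT. Neither pair of groups overlapped, which held for 73.2% of all tested genes, and 33.9% of all tested genes were down. Their log2 fold changes were -1.41 (standard error 0.199, adjusted p = 3.62e-04) and -1.44 (standard error 0.307, adjusted p = 0.00336, both from edgeR, Benjamini-Hochberg). The precursor transcripts of both regulators were therefore lower in *mdf-1* at the same time as the transcripts of their targets *DCL1* and *AGO1*. *MIR162B* had 0 counts in every *mdf-1* library, each of which allows up to 3 counts, and 7, 5 and 13 in WT, and it was not tested. *MIR168B* had 1 count in all libraries together. *MIR403*, whose miRNA targets *AGO2*, had at most 2 counts in any *mdf-1* library and 7 to 10 in WT, and was not tested. *AGO2*, singled out after its values were seen, went the other way from *DCL1* and *AGO1*: it was up with a log2 fold change of 0.32 (edgeR adjusted p = 0.00285, Benjamini-Hochberg).

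*MIR838A* (AT1G01046) lies within intron 14 of *DCL1*, on the same strand. It had 17, 16 and 14 counts in *mdf-1* and 79, 62 and 88 in WT, with a log2 fold change of -2.03 (standard error 0.240, edgeR adjusted p = 1.42e-04, Benjamini-Hochberg) beside -0.80 for *DCL1*. Reads of unspliced *DCL1* RNA and of the miRNA precursor cannot be told apart at this position, and the difference between both changes was not tested. An antisense non-coding gene within the *DCL1* locus, AT1G03993, had at most 12 counts in any library.

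Beyond the 9 genes, the other Dicer-like genes were down as well, 3 of 3, where 33.9% of all tested genes were down. These enzymes make small interfering RNAs (siRNAs). *DCL3*, which acts in RNA-directed DNA methylation, had 4.88 ± 0.91 CPM in *mdf-1* (SD of 3 libraries), and WT had 2.86 times as much, a log2 fold change of -1.52. *DCL4*, the main producer of trans-acting siRNAs, changed by -1.07 and *DCL2* by -0.80. All Dicer-like genes, *DCL1* included, were thus down. The exonic lengths of *DCL2*, *DCL3* and *DCL4* are 5338, 5044 and 5738 bases, all within the longest decile, in which 67.4% of genes were down.

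Of 8 other tested Argonaute genes, 4 were up (50%) and 3 were down (37.5%), against 33.5% and 33.9% of all tested genes, with *AGO5* not called and *AGO8* not tested. *AGO3*, the neighbour of *AGO2* in the genome, had 17.3, 18.1 and 16.6 CPM in *mdf-1* and 1.83, 1.81 and 1.62 CPM in WT, and its log2 fold change of 3.30 was the largest in the pathway lists. *AGO9*, known from its role in ovules, rose from 0.41 ± 0.16 to 2.83 ± 0.54 CPM, a log2 fold change of 2.78. *AGO4* and *AGO6*, which act in DNA methylation, were down by log2 fold changes of -0.85 and -0.90. *AGO4* (3255 bases) lies in the longest decile, in which 67.4% of genes were down, as does *AGO3* (4026 bases), which was up.

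Of 4 double-stranded RNA-binding relatives of *HYL1*, 3 were up (75%) and 1 was down (25%), against 33.5% and 33.9% of all tested genes. *DRB4*, the partner of DCL4, changed by 0.53, *DRB5* by 0.43 and *DRB2* by 0.24, whereas *DRB3* was down with a log2 fold change of -0.87. With total-count scaling *DRB2* no longer passed (log2 fold change 0.09). The direction of *DRB4* was thus opposite to that of *DCL4*. *DRB4* (1368 bases) and *DRB5* (1511 bases) fall in a length decile in which 43.0% of genes were up. For the decile of *DRB2* (1997 bases) that share was 30.9%.

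Among 29 nuclear cofactors of miRNA processing, 9 were up (31.0%), 7 were down (24.1%) and 13 were not called, so both shares lay below those of all tested genes (33.5% and 33.9%). The list had a median log2 fold change of 0.05. The largest changes were those of *BRM*, a chromatin remodeller, which fell from 163 ± 1.4 to 85.1 ± 3.4 CPM (log2 fold change -0.93), of *PRL2*, a relative of the spliceosome-associated *PRL1* (0.68), of *THO2*, a subunit of the THO complex (-0.65), and of *RCF3*, a K homology domain protein that acts with CPL1 (-0.44). *RCF3* and *CPL1* were thus both down. *BRM* (7578 bases) and *THO2* (6616 bases) lie in the longest decile, in which 67.4% of genes were down.

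Of 5 genes that trim or tail miRNAs, 3 were down and 1 was up, where 33.9% of all tested genes were down and 33.5% up. The exonuclease genes *SDN1* (-0.98), *SDN3* (-0.60) and *SDN2* (-0.19) were down, the terminal uridylyltransferase gene *HESO1*, whose product acts on unmethylated miRNAs, was up by 0.20, and *URT1* did not pass (0.15, edgeR adjusted p = 0.058, Benjamini-Hochberg). The calls of *SDN2* and *HESO1* were lost under several alternatives, DESeq2 among them.

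Of 7 genes for the loading, action and turnover of AGO1, 5 were down (71.4%) and 1 was up (14.3%), beside 33.9% and 33.5% of all tested genes. *AMP1*, which is needed for translational repression by miRNAs, fell from 31.3 ± 0.95 to 9.96 ± 2.4 CPM (log2 fold change -1.65). *EMA1*, an importin-beta family gene named SAD2 in the deposited table, changed by -0.53 and *SUO* by -0.49. *EMA1* (3862 bases) and *SUO* (5958 bases) lie in the longest decile, in which 67.4% of genes were down. For the decile of *AMP1* (2432 bases) that share was 39.2%. *FBW2*, which encodes the F-box protein that marks AGO1 for degradation, was the 1 gene up. It had 106 to 115 CPM in *mdf-1* against 73.0 to 78.7 in WT and a log2 fold change of 0.55. *SQN* was not called (log2 fold change -0.09).

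Of 7 genes of the siRNA pathways, 3 were up and 3 were down, 42.9% each, near the 33.5% and 33.9% of all tested genes. *SGS3*, *RDR1* and *SDE5* were up by 1.08, 0.77 and 0.52 on the log2 scale. *NRPE1*, the largest subunit of RNA polymerase V, was down with a log2 fold change of -1.50. *RDR2* and *RDR6* were down as well, with log2 fold changes of -0.33 and -0.27, so the *RDR* genes did not move together. *NRPE1* (6644 bases), *RDR6* (4278), *RDR1* (4045) and *RDR2* (3717) all lie in the longest decile, in which 67.4% of genes were down.

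**Figure D5:**
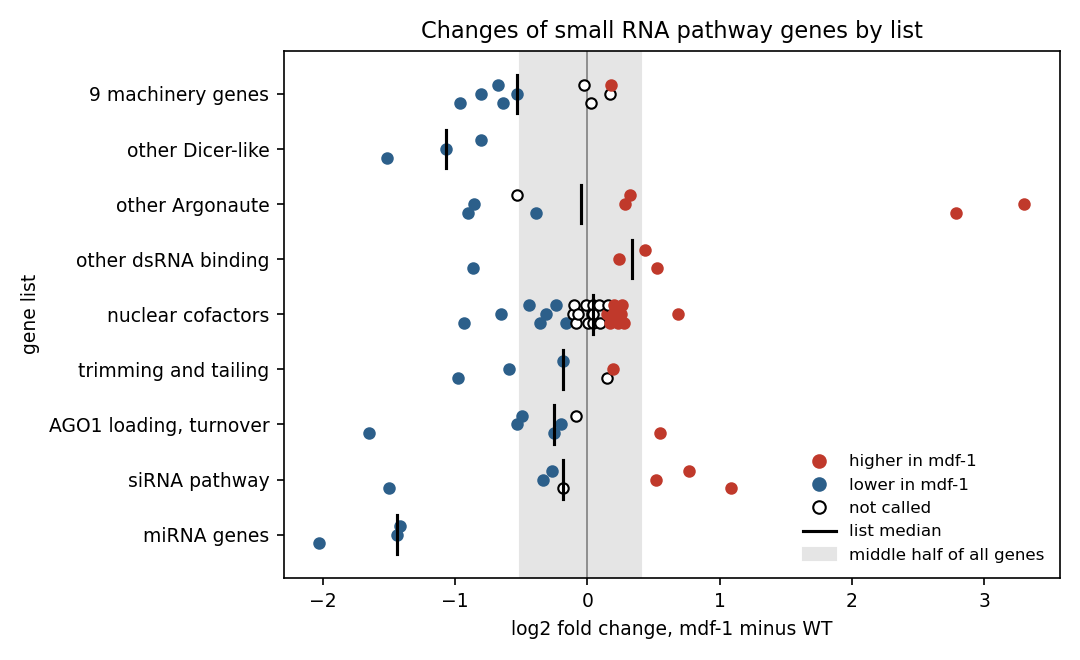
Log2 fold change (*mdf-1* minus WT) of every tested gene in the 9 machinery genes and in 8 lists of related genes, 1 point per gene. Red points were called higher and blue points lower in *mdf-1*, open points were not called, black bars are list medians, and the grey band holds the middle 50% of all tested genes (-0.51 to 0.41).

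The genes most like *DCL1* and *AGO1* across the 6 libraries were sought among the other 22396 tested genes by the Euclidean distance between log2 normalized counts centred on each gene's mean. For *DCL1* they were AT1G15490, an alpha/beta-hydrolase gene (distance 0.06), *NPF1.2* (0.07) and *NPGR1* (0.07). For *AGO1* they were *ABCG29* (0.07), the villin gene *VLN4* (0.07) and the alpha-mannosidase gene AT5G13980 (0.08). With 6 libraries in 2 groups, this likeness rests mostly on the difference between the genotypes, and none of the 6 genes belongs to the pathway lists used here.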

How the data were processed

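Per the labels, total RNA of complete 12-day-old seedlings was made into libraries with a NEBNext Ultra kit, and the submitters' processing notes name fastp, HISAT2, featureCounts and TAIR10, whose settings and versions are not given in the sources used here. The authors deposited raw counts per gene and library, which every test started from. The same table holds FPKM, scaled counts and the authors' own DESeq2 comparison (fold changes and p-values), which were not used. Exonic gene lengths, deposited with the counts, gave the RPKM values.

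Genes were filtered with filterByExpr, scaled by TMM and fitted in edgeR 4.0.16 by quasi-likelihood (glmQLFit with robust estimates, then glmQLFTest) under R 4.3.3 with limma 3.58.1, with genotype as the only term and Benjamini-Hochberg adjustment over all 22397 tested genes. Log2 normalized counts used a prior count of 2. The steps were tested on simulated data. A permutation test of 3 against 3 libraries cannot go below 0.1. Limits from a count of 0 (3 counts) cover counting error only.

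The 9 genes and all lists were chosen with earlier results of these data known. Named beside the 9 genes were the up to 4 called genes with the largest change in each related list, all genes of lists of at most 6, and 3 nearest genes each for *DCL1* and *AGO1*. *AGO2*, *AGO5*, *AGO8*, *RDR2*, *RDR6* and *SQN* were named too, after their values were seen. For the tissue markers, sums and counts are given. Alternatives were DESeq2 1.42.0, scaling by RLE, upper quartile or total counts, leaving out the filter or requiring at least 10 counts throughout, adding the replicate number to the fit, omitting each library in turn, and an adjusted p below 0.01.

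Sequences came from RefSeq TAIR10.1. The 103 genes in the lists had the same chromosome, start and end there as in the deposited table. Target sites were searched in spliced transcripts with up to 6 unpaired target bases in 1 run. Splicing events were looked up by gene in the study's lists, and no value was taken from them. Figures were drawn with matplotlib 3.10.9 in Python 3.11.15.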

Additional observations from a re-analysis of the deposited data

How the results depend on the processing

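The decreases of *DCL1*, *CPL1*, *HEN1*, *HST* and *AGO1* kept their direction and passed the threshold under each of the 13 alternatives run on them. With total-count scaling *TGH* passed too (log2 fold change -0.17), which made 6 genes down. The number of machinery genes up was 0 in place of 1 with DESeq2, upper-quartile scaling, total counts, at least 10 counts in every library or an adjusted p below 0.01, and ranged from 0 to 1 with each library left out. This follows from *DDL* alone. The cause was not tested.

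Deviations of same-numbered libraries correlated at 0.044, -0.0035 and 0.080, and those of differently numbered libraries between -0.089 and 0.048. All these correlations were weak, and whether replicate numbers pair the samples cannot be told from them. With a replicate block, 7302 genes were up and 7441 down, and of the machinery genes 0 were up and 5 down (*DDL* 0.17, adjusted p = 0.0522, edgeR with Benjamini-Hochberg adjustment).

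Values near 0 changed sign without passing the test. *SE* was -0.027 with upper-quartile scaling, -0.12 with total counts, and between -0.0051 and 0.059 with a library left out, and *TGH* was between -0.043 and 0.0038. *LHCB1.1* was -0.065 with total counts and between -0.024 and 0.21 with a library left out, and *LHCA3* was -0.086 and between -6.4e-05 and 0.16. For related and marker genes, 661 values kept direction and side of the threshold, 19 lost the call, 3 gained it and 4 changed sign. These values cover all tested genes of lists of at most 6. From longer lists they cover only the up to 4 called genes with the largest change. Other calls in the longer lists, among them *AGO2* and *AGO7* (edgeR adjusted p = 0.0474 for *AGO7*, Benjamini-Hochberg), were not run. How the up and down counts of the longer lists depend on the processing was therefore not tested. Counts of a few reads limit *MIR168A*, *MIR162B* and *MIR403*.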
